A study of Mus musculus with 6 samples.

Results

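Cortical interneurons are named after the peptides and calcium-binding proteins that they make, and the mRNA levels of 8 such genes were measured here in the prefrontal cortex of aged mice. The genes were Sst, Pvalb, Vip, Npy, Cck, Cort, Calb2 and Reln. They were taken by symbol through their Ensembl identifiers, and all 8 were found among the 21006 genes of the table. All animals were wild type male C57BL/6 mice, 18 months old by the age label, although the sample titles hold the code 17M, which the labels do not explain. The PND group (postoperative neurocognitive disorder, n = 3) had isoflurane anesthesia plus exploratory laparotomy, in which the abdomen is opened and its organs inspected, with lidocaine cream and povidone iodine on the wound afterwards. The CON group (n = 3) had neither anesthesia nor operation, so anesthesia, surgery and wound care cannot be told apart. Mice of both groups went through behavioral testing, and the tissue was taken under isoflurane after the Barnes maze, so that the controls were also exposed to the anesthetic at the end.

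Interneurons are the local inhibitory neurons of the cortex, and they release GABA. Most of them fall into classes marked by parvalbumin, by somatostatin, or by the serotonin receptor Htr3a, the last of which includes the cells that make VIP and many of those that make reelin. Parvalbumin cells inhibit the soma and axon of pyramidal neurons, somatostatin cells inhibit their dendrites, and VIP cells largely inhibit other interneurons. Cck is an exception among the 8 genes, since cortical pyramidal neurons transcribe it as well. The samples were pieces of whole tissue, in which fewer cells of a type and less mRNA per cell cannot be told apart.

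The control region of Sst is the textbook case of a gene driven through cyclic AMP: its promoter holds the palindrome TGACGTCA, the cyclic AMP response element bound by CREB. The 250 bases before the RefSeq start on GRCm38.p6 were searched on both strands for TGACGTCA and for its first 5 bases, TGACG, which lie within the longer motif and read CGTCA on the other strand. Promoters were matched for 7 of the 8 genes, and Calb2 was the one without an entry. The full element was found in 1 of the 7 genes, Sst, and TGACG in 4, Sst, Vip, Cck and Cort. Over all 32851 promoters of the table, 508 (1.55%) held TGACGTCA and 5836 (17.8%) held TGACG. The 4 sequences are shown 5′ to 3′ because these peptide genes share the motif, which is in capitals and starts 48 (Sst), 79 (Vip), 47 (Cck) and 18 (Cort) bases before the RefSeq start. They lie at chr16:23890845-23891094 (minus strand), chr10:5638968-5639217 (plus strand), chr9:121495695-121495944 (minus strand) and chr4:149126764-149127013 (minus strand). A match is a string of letters and not evidence of binding.

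Sst: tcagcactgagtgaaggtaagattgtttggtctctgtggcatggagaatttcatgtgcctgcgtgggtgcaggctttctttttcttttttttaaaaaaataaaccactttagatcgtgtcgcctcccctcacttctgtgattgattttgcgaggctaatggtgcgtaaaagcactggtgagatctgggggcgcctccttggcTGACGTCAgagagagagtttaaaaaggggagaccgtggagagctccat
Vip: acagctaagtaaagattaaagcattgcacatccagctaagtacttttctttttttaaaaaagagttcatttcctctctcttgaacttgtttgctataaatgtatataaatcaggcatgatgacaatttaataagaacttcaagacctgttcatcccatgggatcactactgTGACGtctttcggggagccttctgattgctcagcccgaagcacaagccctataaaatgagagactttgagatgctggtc
Cck: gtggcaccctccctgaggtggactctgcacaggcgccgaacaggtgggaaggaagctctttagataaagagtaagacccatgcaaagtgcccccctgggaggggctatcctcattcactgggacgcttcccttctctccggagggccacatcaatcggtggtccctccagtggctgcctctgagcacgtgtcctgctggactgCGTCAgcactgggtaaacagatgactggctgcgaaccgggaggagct
Cort: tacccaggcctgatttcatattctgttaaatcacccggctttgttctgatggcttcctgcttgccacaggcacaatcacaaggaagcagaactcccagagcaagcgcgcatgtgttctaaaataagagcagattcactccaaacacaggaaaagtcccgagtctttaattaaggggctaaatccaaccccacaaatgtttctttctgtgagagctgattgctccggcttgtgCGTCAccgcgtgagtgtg

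Levels are given in FPKM, a count of fragments divided by exon length and library size. The depth was not stated and was estimated from the steps of low values at 7211191 to 9383370 fragments per sample. It is an effective depth that includes any such normalization. No pair of samples held identical values, and mitochondrial genes took 30.4% to 38.8% of the FPKM of a sample. PND was compared with CON by limma after log2(FPKM + 0.1) transformation. The fit took in 18185 genes, those that averaged 0.1 FPKM or more, and all fold changes are on this log2 scale, which understates the change of low genes. The cut-off of the study asked for more than a 2-fold difference (a log2 fold change beyond 1 in either direction) together with an unadjusted p below 0.05.

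None of the 8 interneuron genes passed the cut-off, against 241 of all genes tested (1.33%). None had an unadjusted p below 0.05, against 569 genes (3.13%), and 2 genes (0.011%) had an adjusted p below 0.05 (Benjamini-Hochberg over all genes tested). The adjusted p of all 8 in limma was 0.9999. Of the 8, Cort was too low for a difference to be detectable at this depth. In none of the 8 were the 3 PND samples all above or all below the 3 CON samples, which was the case for 1393 genes (7.66%). In 5 of them (Sst, Pvalb, Vip, Cck and Calb2) the lowest and the highest CON sample enclosed all PND samples, a pattern of 5585 genes (30.7%), and in Reln the PND samples enclosed the CON samples, as in 2230 genes (12.3%). Of the 7 genes with more than 3 estimated fragments in a sample, 5 had a higher and 2 a lower fitted mean in PND, of which Vip, at -0.01, changed sign under quantile normalization and after a GC correction. Their median log2 fold change was 0.09, beside 0.01 over all genes tested.

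**Figure D1:**
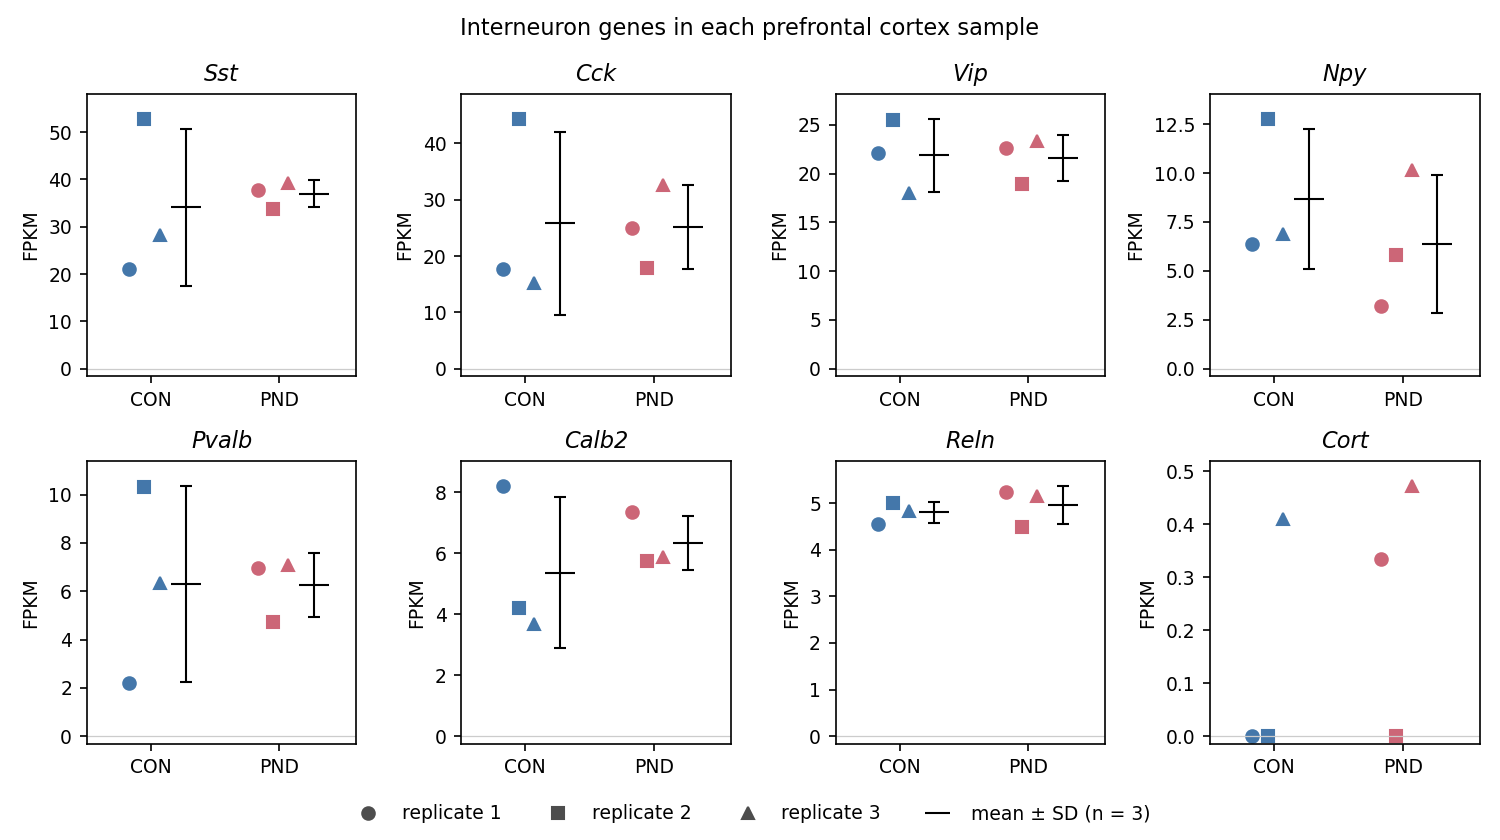
FPKM (linear axis from 0) of the 8 interneuron genes in the 3 CON samples (blue) and 3 PND samples (red), with marker shape for the replicate number and black bars for mean ± SD (n = 3, not drawn for Cort). CON replicate 2 was the highest of the 6 samples for Sst, Cck, Vip, Npy and Pvalb, and the PND points lay within the CON range for Sst, Cck, Vip, Pvalb and Calb2.

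Among the peptides, Sst (ENSMUSG00000004366, chromosome 16, 23889573 to 23890958 on GRCm38, minus strand) encodes somatostatin, which dampens release and excitability through Gi-coupled receptors. Its level was 37.7, 33.8 and 39.3 FPKM in the PND samples and 21.2, 52.9 and 28.3 FPKM in the CON samples. The PND samples lay close together inside a CON range that was set by a low replicate 1 and a high replicate 2. The means were 36.9 ± 2.84 and 34.1 ± 16.6 FPKM (SD, n = 3 each), and the fold was 1.16 with a 95% interval from 0.712 to 1.90 (log2 fold change 0.22, SE 0.30, unadjusted p = 0.491 in limma). The direction and the p of Sst turned on single control libraries. Without CON replicate 2 the log2 fold change was 0.59 (SE 0.16, unadjusted p = 0.00776, adjusted p = 0.831 in limma), in a fit where 3.45% of all genes had an unadjusted p below 0.05 and were higher in PND. Without CON replicate 1 it was -0.07 (unadjusted p = 0.792).

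Cort (ENSMUSG00000028971, chromosome 4, 149125034 to 149126763, minus strand) encodes cortistatin, a peptide close to somatostatin that binds the same receptors. It was listed at 0.334, 0 and 0.472 FPKM in PND and at 0, 0 and 0.411 FPKM in CON. These values corresponded to an estimated 2.00, 0 and 3.00 fragments in PND and 0, 0 and 2.01 in CON, 7.01 fragments in all. No sample was above the floor of 3 fragments that a count of 0 allows, which was 0.472 to 0.615 FPKM per sample. No fold is therefore given for Cort, and a difference was not detectable at this depth.

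Npy (ENSMUSG00000029819, chromosome 6, 49822710 to 49829507, plus strand) encodes neuropeptide Y, made by many somatostatin cells and by neurogliaform cells. Its level was 3.20, 5.81 and 10.2 FPKM in PND and 6.37, 12.8 and 6.88 FPKM in CON. The mean was lower in PND, 6.39 ± 3.52 against 8.68 ± 3.57 FPKM (SD, n = 3 each), but the groups overlapped, with PND replicate 3 above 2 of the controls. The fold was 0.700 with an interval from 0.346 to 1.42 (log2 fold change -0.51, SE 0.43, unadjusted p = 0.274 in limma). Without PND replicate 3 the log2 fold change was -0.92 (SE 0.38, unadjusted p = 0.0499, adjusted p = 0.9999 in limma), beside 1.27% of all genes that were lower at an unadjusted p below 0.05 in the same fit. Without PND replicate 1 it was -0.10 (unadjusted p = 0.799), and without CON replicate 2 it was -0.20 (unadjusted p = 0.662). Npy rested on an estimated 16.0 to 58.9 fragments per sample, and counting error alone gave a coefficient of variation of 25.0% at the lowest of these.

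Vip (ENSMUSG00000019772, chromosome 10, 5639218 to 5647617, plus strand) encodes vasoactive intestinal peptide, which raises cyclic AMP in its target cells. Its level was 22.7, 19.0 and 23.4 FPKM in PND and 22.1, 25.6 and 18.0 FPKM in CON. The groups lay on top of each other, at 21.7 ± 2.36 and 21.9 ± 3.77 FPKM (SD, n = 3 each). The fold was 0.995 with an interval from 0.771 to 1.29 (log2 fold change -0.01, SE 0.16, unadjusted p = 0.966 in limma), the narrowest interval among the peptides in this fit.

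Cck (ENSMUSG00000032532, chromosome 9, 121489824 to 121495694, minus strand) encodes cholecystokinin, the marker of a class of basket cells. Its level was 24.9, 17.9 and 32.7 FPKM in PND and 17.7, 44.4 and 15.2 FPKM in CON. CON replicate 2 stood 2.92 times above CON replicate 3. The means were 25.2 ± 7.38 and 25.8 ± 16.2 FPKM (SD, n = 3 each), with a fold of 1.07 and an interval from 0.549 to 2.07 (log2 fold change 0.09, SE 0.41, unadjusted p = 0.826 in limma). The fold of Cck compares means of log2 values and lies above 1, whereas the plain FPKM mean was lower in PND. Without CON replicate 2 the log2 fold change was 0.57 (unadjusted p = 0.0581), and without CON replicate 3 it was -0.20 (unadjusted p = 0.655).

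Of the calcium-binding proteins, Pvalb (ENSMUSG00000005716, chromosome 15, 78191114 to 78206400, minus strand) encodes parvalbumin, the fast calcium buffer of basket and chandelier cells. Its level was 6.97, 4.72 and 7.07 FPKM in PND and 2.21, 10.3 and 6.35 FPKM in CON. The CON samples spanned a 4.66-fold range and the PND samples a 1.50-fold range. Means were 6.25 ± 1.33 and 6.30 ± 4.06 FPKM (SD, n = 3 each), and the log2 fold change of 0.22 (SE 0.51, interval -0.97 to 1.40, unadjusted p = 0.680 in limma) had the widest interval of the 7. The fold was 1.16, with an interval from 0.511 to 2.65. This fold compares means of log2 values, and the plain FPKM means of Pvalb lay in the opposite order. Without CON replicate 1, in which Pvalb rested on an estimated 17.2 fragments, the log2 fold change was -0.39 (unadjusted p = 0.197), and without CON replicate 2 it was 0.70 (unadjusted p = 0.155).

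Calb2 (ENSMUSG00000003657, chromosome 8, 110137502 to 110168210, minus strand) encodes calretinin, which marks many VIP cells and part of the somatostatin cells. Its level was 7.35, 5.75 and 5.88 FPKM in PND and 8.21, 4.20 and 3.69 FPKM in CON. Here the samples were ordered otherwise, with CON replicate 1 the highest of the 6 and CON replicates 2 and 3 the lowest. The means were 6.33 ± 0.889 and 5.37 ± 2.47 FPKM (SD, n = 3 each), with a fold of 1.24 and an interval from 0.767 to 2.02 (log2 fold change 0.31, SE 0.30, unadjusted p = 0.325 in limma). Without CON replicate 1 the log2 fold change was 0.66 (SE 0.18, unadjusted p = 0.00806, adjusted p = 0.889 in limma), in a fit where 2.53% of all genes were higher in PND at an unadjusted p below 0.05. Without CON replicate 3 it was 0.10 (unadjusted p = 0.765).

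Reln (ENSMUSG00000042453, chromosome 5, 21884454 to 22344702, minus strand) encodes reelin, a large secreted glycoprotein that guides migrating neurons in development and acts on synapses in the adult. Its level was 5.24, 4.49 and 5.14 FPKM in PND and 4.56, 5.01 and 4.83 FPKM in CON. The samples of both groups lay close together, at 4.96 ± 0.409 and 4.80 ± 0.225 FPKM (SD, n = 3 each) and 809 to 1145 estimated fragments per sample. The fold was 1.03, with an interval from 0.820 to 1.29 (log2 fold change 0.04, SE 0.14, unadjusted p = 0.768 in limma). Exons of Reln share 246 bases with the antisense gene Gm10475, and the use of strand in counting was not given, so fragments in that stretch could belong to either.

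**Figure D2:**
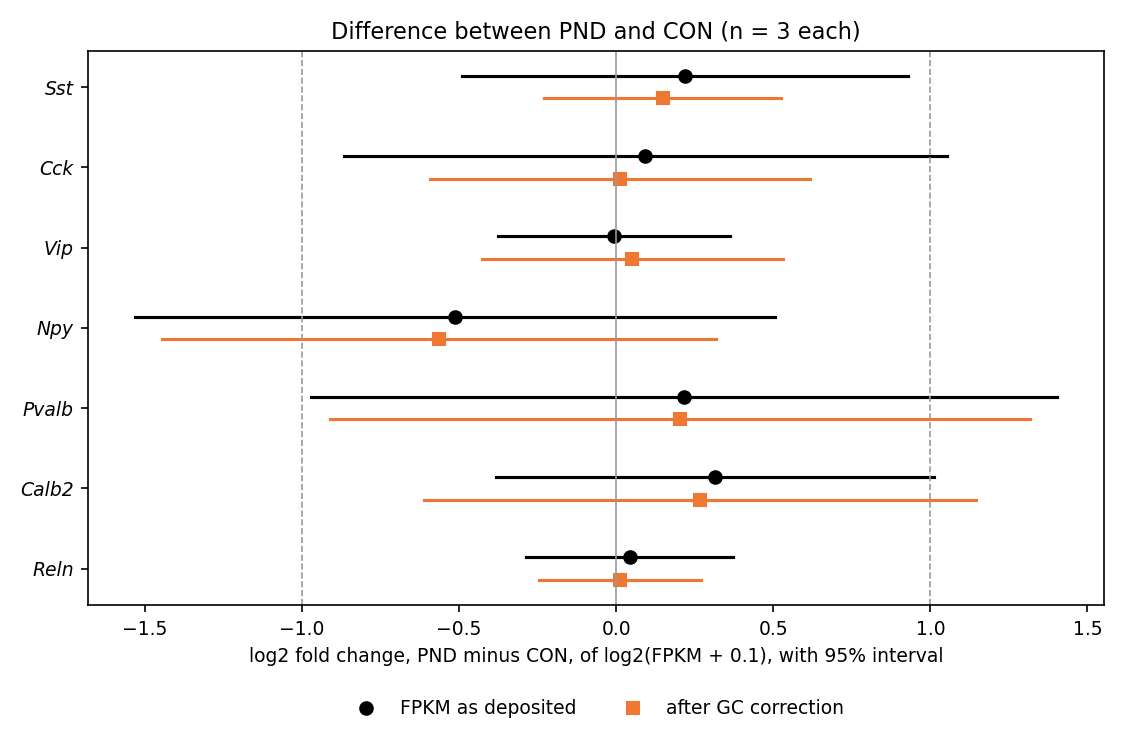
Log2 fold change, PND minus CON, on the log2(FPKM + 0.1) scale for 7 interneuron genes (Cort, with no sample above 3 fragments, is left out), with limma 95% intervals as lines, for the FPKM as deposited (black) and after correction for GC content (orange). Dashed lines mark a 2-fold difference, all intervals include 0, and the intervals of Vip and Reln are the narrowest before correction.

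The 95% intervals set what these 3 against 3 samples could show. For Sst, Vip and Reln the interval stayed within a 2-fold difference in both directions, and for Npy, Cck, Pvalb and Calb2 it reached beyond 2-fold in one direction. A p above the threshold does not show that the groups were alike.

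By level, the 8 genes fell into 3 tiers that did not overlap in any sample. Sst (mean over the 6 samples 35.5 FPKM), Cck (25.5 FPKM) and Vip (21.8 FPKM) formed the upper tier. Npy (7.53 FPKM), Pvalb (6.28 FPKM), Calb2 (5.85 FPKM) and Reln (4.88 FPKM) formed the middle one, and Cort (0 to 0.472 FPKM) stood alone at the bottom. Within the tiers the ranges of neighbours overlapped. Sst was above Cck in 6 of 6 samples and Npy above Pvalb in 5, while Cck was above Vip in 3 of 6 and Pvalb above Calb2 in 3 of 6. Levels per length depend on the exon lengths of the authors, which were not given.

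The spread between controls was large for most of these genes. The coefficient of variation of FPKM among the CON samples was 64.4% for Pvalb, 62.8% for Cck, 48.7% for Sst, 46.1% for Calb2 and 41.2% for Npy. Each of these was larger than in at least 86.4% of the 12387 genes that averaged 1 FPKM or more, whose median was 17.8% in CON and 13.4% in PND. Vip (17.2%) lay near that median and Reln (4.69%) was below it. In 5 of the 7 genes CON varied more than PND, as did 8189 of the 12387 genes (66.1%). Npy was one of the exceptions, with 55.1% in PND, and Reln the other, with 8.26%. Counting error was smaller than this spread: at the lowest sample it gave a coefficient of variation of 9.36% for Sst and 24.1% for Pvalb.

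CON replicate 2 was the highest of the 6 samples for Sst, Pvalb, Vip, Npy and Cck, and CON replicate 1 was the lowest for Sst and Pvalb. These libraries also differed by base composition. In the tenth of genes richest in GC (median 58.5%), the median deviation from the mean of the 6 samples on the log2 scale was 0.49 in CON replicate 2 and -0.56 in CON replicate 1. It was 0.37 in PND replicate 3 and -0.30 in PND replicate 2. Cck (56.9% GC) and Sst (56.0%) are GC-rich, and Vip (38.7%) is poor in GC. As an alternative, every sample was corrected for a smooth trend on GC content. The SE of the log2 fold change then went from 0.30 to 0.16 for Sst and from 0.41 to 0.26 for Cck, and it was smaller for 5 genes and larger for 2, Vip and Calb2.

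**Figure D3:**
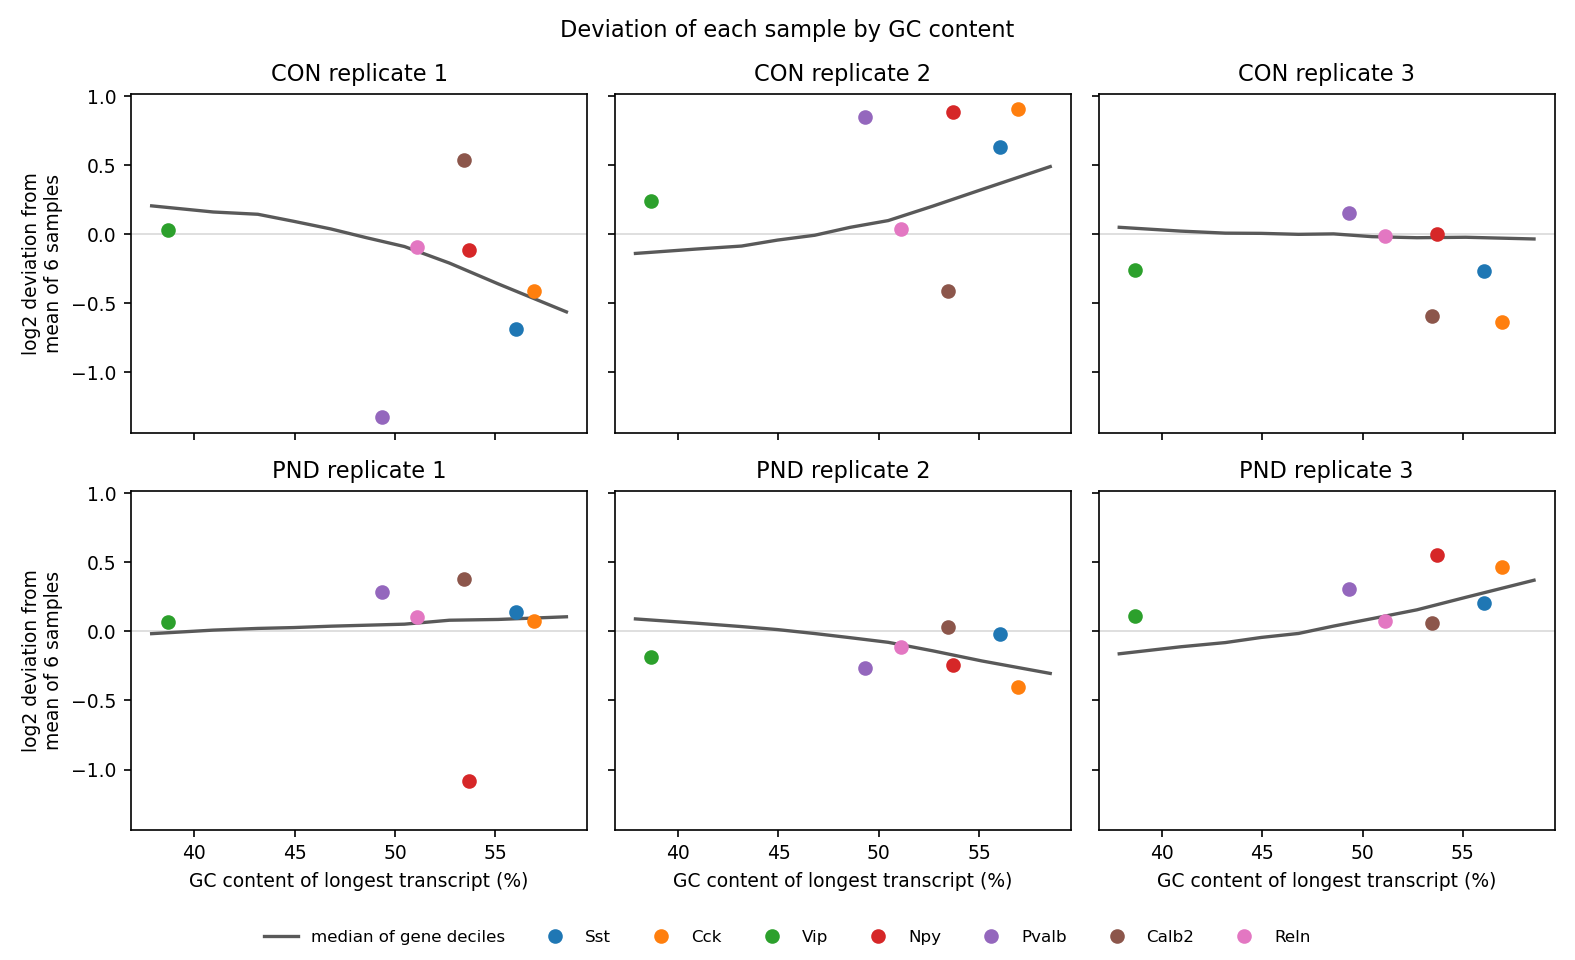
Log2 deviation of each sample from the mean of the 6 samples (y axis) against the GC content of the longest transcript in percent (x axis), 1 panel per sample. The grey line joins the medians of 10 equal groups of genes averaging 1 FPKM or more, and colored points are 7 interneuron genes. The line slopes down in CON replicate 1 and PND replicate 2, up in CON replicate 2 and PND replicate 3, and Sst and Cck follow it in CON replicates 1 and 2, whereas Calb2 lies on the other side.

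After the GC correction, Sst was at 35.2, 39.6 and 32.4 FPKM in PND and 28.02, 40.9 and 28.9 FPKM in CON. CON replicate 2 was still the highest sample and the other controls still the lowest. The log2 fold change of Sst was 0.15 (interval -0.23 to 0.52, unadjusted p = 0.386 in limma). That of Cck was 0.01 (unadjusted p = 0.962) and that of Npy -0.56 (unadjusted p = 0.176). None of the 7 genes had an unadjusted p below 0.05 after the correction.

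The patterns of the 7 quantified genes over the samples were then compared. Over the 21 pairs among them, Pearson r of log2(FPKM + 0.1) over the 6 samples was positive in 16 pairs and negative in 5, all 5 of them pairs with Calb2, and it was positive in 11 after the GC correction. For 3 pairs the unadjusted p of r was below 0.05 in an exact two-sided permutation test, and for none the p adjusted over the 21 pairs. Sst and Pvalb had r = 0.91 (exact permutation p = 0.0153, adjusted p = 0.185) and Spearman rho = 0.94 (exact permutation p = 0.0167, adjusted p = 0.117). Without the 2 samples farthest from the median of Sst the r of this pair was 0.35, so the size of r rests on those 2 samples, and after the GC correction r was 0.60. Vip and Cck had r = 0.89 (exact permutation p = 0.0208, adjusted p = 0.185) and rho = 0.94 (exact permutation p = 0.0167, adjusted p = 0.117), with r = 0.95 without the 2 farthest samples and 0.86 after the GC correction. Sst and Cck had r = 0.85 (exact permutation p = 0.0264, adjusted p = 0.185) and rho = 0.94 (exact permutation p = 0.0167, adjusted p = 0.117), with r = 0.93 and 0.53 in those 2 settings. The points share their groups and libraries.

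Of these genes, 6 were also set beside the 92 listed genes of at least 1 FPKM, to name the one with the most similar pattern over the 6 samples, as a description. These were the fast potassium channel gene Kcnc1 for Sst (r = 0.91), the myelin gene Cnp for Pvalb (r = 0.96), the peptide-amidating enzyme gene Pam for Vip (r = 0.97) and the upper layer gene Cux2 for Npy (r = 0.86). For Cck it was Crhbp (r = 0.97) and for Calb2 it was Ndnf (r = 0.95).

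Interneurons of all classes share the machinery for GABA, so each gene was next taken relative to Gad1, Gad2 and Slc32a1 in the same sample. Gad1 and Gad2 make GABA and Slc32a1 loads it into vesicles. Gad1 was at 29.9, 30.4 and 29.4 FPKM in PND and 35.0, 23.3 and 27.5 FPKM in CON, and Slc32a1 at 3.96, 2.76 and 5.52 FPKM in PND and 1.81, 3.99 and 4.52 FPKM in CON. Gad2 was at 94.1, 126 and 101 FPKM in PND and 108, 67.4 and 126 FPKM in CON. CON replicate 2, highest for 5 of the interneuron genes, was thus the lowest sample for Gad1 and Gad2. It was also lowest for the sum of 6 striatal markers (80.4 FPKM), and the part of tissue makeup in the relative levels was not tested. On this relative scale the log2 difference between PND and CON was 0.06 for Sst, 0.05 for Pvalb, -0.17 for Vip, -0.68 for Npy, -0.07 for Cck, 0.15 for Calb2 and -0.12 for Reln. The exact two-sided permutation p, which cannot go below 0.1 with 3 against 3 samples, was between 0.4 (Npy) and 1 (Sst).

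Peptide receptors were examined next, since they carry the signal of these peptides. Of 15 receptor genes listed, 14 were found and 12 passed the filter on low values. None had an unadjusted p below 0.05 in either direction, against 3.13% of all genes, and their median log2 fold change was -0.02. Sstr2, the somatostatin receptor gene with the smallest p, had 1.50 ± 0.258 FPKM in PND against 1.05 ± 0.218 in CON (SD, n = 3 each, unadjusted p = 0.0916 in limma). Npy5r, a receptor for neuropeptide Y, was at 1.70 ± 0.236 and 2.23 ± 0.639 FPKM (unadjusted p = 0.240 in limma). Cckbr, the brain receptor for cholecystokinin, was at 7.17 ± 1.07 and 8.68 ± 2.69 FPKM, with an unadjusted p of 0.331 that became 0.0271 after the GC correction (log2 fold change -0.31), a fit in which 793 of all genes (4.36%) had an unadjusted p below 0.05. Vipr2 was at or below 0.413 FPKM in all samples, whereas Vipr1 was at 2.39 to 5.77 FPKM (log2 fold change -0.05). Of the reelin receptors and adaptors Lrp8, Vldlr, Dab1 and Fyn none had an unadjusted p below 0.05. The smallest was that of the receptor gene Lrp8, at 4.84 ± 0.325 and 4.32 ± 0.471 FPKM (unadjusted p = 0.307, adjusted p = 0.9999 in limma).

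Peptide precursors are cut and amidated in secretory granules, and 9 genes of that machinery were listed and tested. Of these, 1 had an unadjusted p below 0.05. Over all 65 genes of the receptor, reelin, processing, interneuron and GABA lists there were 2 such genes (3.08%), beside 3.13% of all genes, and 5 whose groups did not overlap (7.69%), beside 7.66%. Pcsk1, a prohormone convertase that makes early cuts, was at 13.7, 11.6 and 12.2 FPKM in PND and 13.9, 18.1 and 15.9 FPKM in CON. All PND samples were below all CON samples, by a narrow gap between PND replicate 1 and CON replicate 1. The log2 fold change of Pcsk1 was -0.35 (SE 0.14, unadjusted p = 0.0384, adjusted p = 0.9999 in limma), short of the 2-fold cut-off. Pcsk1 had an unadjusted p below 0.05 in 10 of 18 other settings, and its p was 0.127 after the GC correction and 0.109 without CON replicate 2. Chga, which encodes the granule protein chromogranin A, was at 23.2 ± 6.16 FPKM in PND and 15.8 ± 5.41 FPKM in CON (unadjusted p = 0.0854 in limma), and its p after the GC correction was 0.00851. In the GC-corrected fit 3 of the 65 genes of these receptor, reelin, processing, interneuron and GABA lists (4.62%), Cckbr, Chga and Dlx1, had an unadjusted p below 0.05, beside 4.36% of all genes.

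The remaining interneuron genes were 40 in number: 4 of GABA synthesis and transport, 15 factors of interneuron identity and 21 other markers. All 40 were tested, and 1 of them (2.5%) had an unadjusted p below 0.05, against 3.13% of all genes. That gene was Dlx1, a homeobox factor that interneuron precursors use and that some mature interneurons keep. Dlx1 was at 0.149, 0.262 and 0.121 FPKM in PND and at 1.79, 0.521 and 0.734 FPKM in CON. All PND samples were below all CON samples, on an estimated 6.11 to 11.2 fragments in PND and 22.9 to 72.1 in CON. Dlx1 fell by 1.87 on the log2 scale (SE 0.48, unadjusted p = 0.00517, adjusted p = 0.9999 in limma) and passed the cut-off of the study. The p of Dlx1 was between 0.00298 and 0.0254 in 17 other settings, and with a pseudocount of 1 its log2 fold change of -0.73 missed the cut-off. Exons of Dlx1 share 335 bases with the antisense gene Dlx1as, and without strand their fragments cannot be told apart. Nr2f2, Maf and Adarb2, which mark interneuron lineages, were also lower in all PND than in all CON samples, with p above the threshold. Together with Dlx1 these made 4 of the 40 genes (10%) whose groups did not overlap, beside 7.66% of all genes. Summed over the 15 identity factors, the level was 27.9 to 30.4 FPKM in PND and 31.7 to 32.3 FPKM in CON. By gene the list was divided, with 7 factors higher and 8 lower in PND and a median log2 fold change of -0.06. Nkx2-1, with the smallest unadjusted p after Dlx1 in this list (0.0673 in limma), was higher in PND (log2 fold change 0.93). Also higher were Dlx2 (0.33), Dlx5 (0.22) and Dlx6 (0.18), and in each of these genes the groups overlapped. Of the other markers, Pdyn, which encodes prodynorphin, had the smallest unadjusted p (0.147 in limma).

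**Figure D4:**
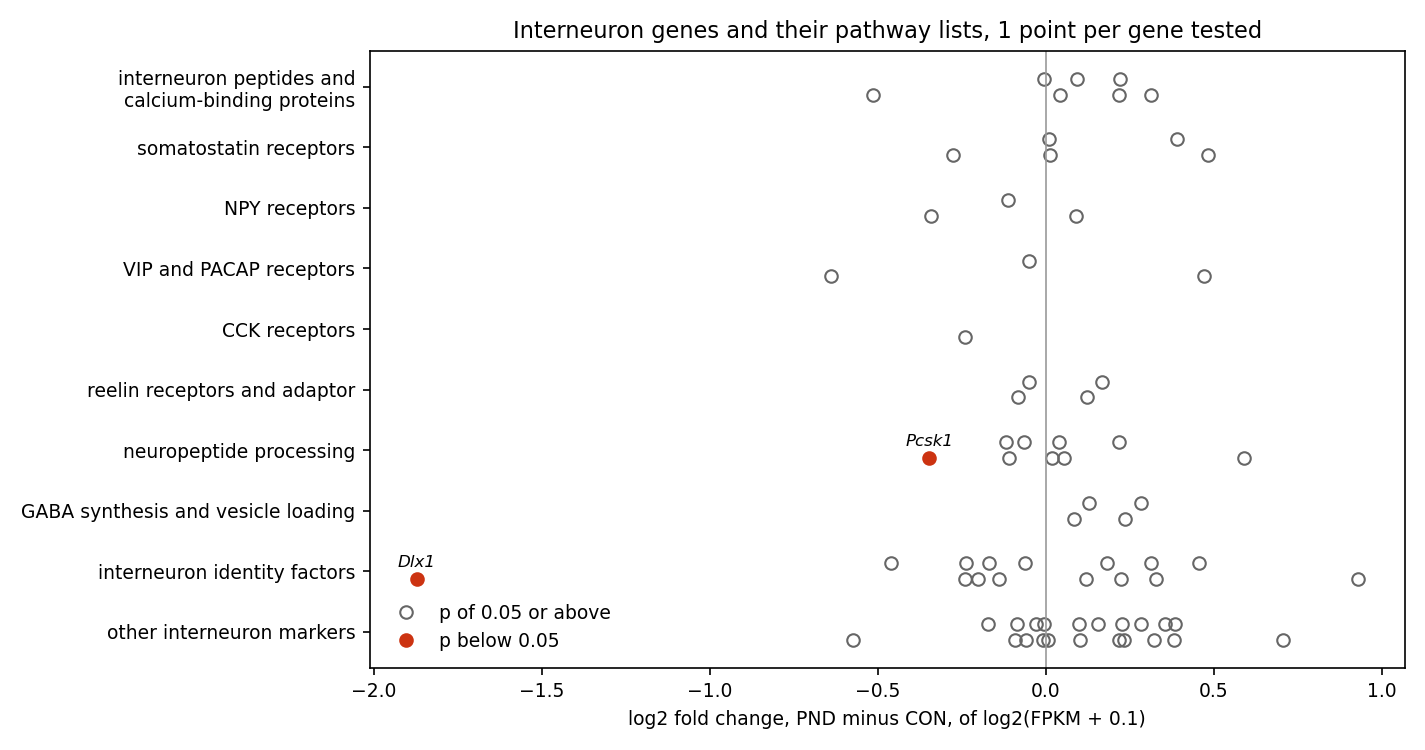
Log2 fold change, PND minus CON, on the log2(FPKM + 0.1) scale (x axis), 1 point per gene tested, for 7 of the interneuron genes (Cort left out) and 9 lists of related genes (y axis). Filled points have an unadjusted limma p below 0.05, and these were Dlx1 at -1.87 and Pcsk1 at -0.35.

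The tissue was checked with markers of other cells and regions. The cortical excitatory markers Slc17a7 (23.6 to 73.8 FPKM) and Neurod6 (78.2 to 104 FPKM) were present in all samples. The summed level of 8 excitatory markers was 207 to 250 FPKM in PND and 196 to 321 FPKM in CON, and that of 6 striatal markers was 117 to 141 FPKM in PND and 80.4 to 188 FPKM in CON. CON replicate 2, the highest sample for Sst, Pvalb, Vip, Npy and Cck, was also highest for the excitatory sum and lowest for the striatal sum. Choroid plexus markers summed to 3.31 FPKM or less, with Ttr at 0.207 FPKM or less. Of the 50 tissue markers tested, 8 (16%) had an unadjusted limma p below 0.05, 5 higher and 3 lower in PND, beside 3.13% of all genes, and their adjusted p was 0.9999. Higher in PND by log2 fold change were Gfap of astrocytes (0.66), Ly6c1 of endothelium (0.79), Clic6 of choroid plexus (0.80) and Prkcd of thalamus (0.70), and also the hippocampal gene Spink8, listed at 0 in 2 of the CON samples. Lower were Aqp4 of astrocytes (-0.36) and P2ry12 of microglia (-0.76). By list, 3 of 5 microglia markers were higher and 2 lower (median log2 fold change 0.15), and the same counts held for 5 astrocyte markers (median 0.05). Of the endothelial markers 3 of 4 were higher (median 0.30), of the choroid plexus markers 3 of 3 (median 0.34), and of the olfactory bulb and thalamus markers, which include Calb2, 3 of 4 (median 0.23). Of the hippocampus markers 2 of 5 were higher (median -0.24), of the excitatory markers 2 of 8 (median -0.09) and of the oligodendrocyte markers 1 of 5 (median -0.19). Striatal markers were higher in 6 of 6 (median 0.10) and hypothalamus, septum and basal forebrain markers in 4 of 6 (median 0.28). The part of tissue makeup in the values of the interneuron genes was not tested.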

How the data were processed

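Prefrontal cortex of 3 PND and 3 CON mice was sequenced, 1 animal per sample. The authors removed ribosomal RNA, filtered reads with Seqtk, aligned them with HISAT2 and deposited FPKM per Ensembl gene (submitters' processing notes name Bowtie 0.12.2 and the builds mm8 and mm9, without saying for which data). Strand use, exon lengths and depth were not given in the sources used here. Groups came from the treatment labels and replicate numbers from the titles, with no batch given. Here 20866 of 21006 identifiers were matched to a symbol, and coordinates, exon length and GC content were taken from GENCODE M21 (GRCm38). Depth was estimated from the steps that FPKM times exon length takes at low values, of which 41.6% to 44.8% lay within 0.05 of a whole fragment. Fragment numbers are thus estimates and cover counting error only.

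The 2 groups were compared with limma 3.58.1 under R 4.3.3 (lmFit, eBayes with an intensity trend, log2(FPKM + 0.1), no covariate), with unadjusted p and Benjamini-Hochberg adjustment over all genes tested. The GC correction subtracted a lowess curve (span 0.3) fitted within each sample on genes of at least 1 FPKM. The fit was tested on simulated data. Promoter sequences came from RefSeq on GRCm38.p6. Alternatives were the pseudocount, the filter, the trend, the scaling, the GC correction, the replicate number as a block, voom on estimated fragments and leaving out each sample. Related genes were named where their unadjusted p was below 0.05, with the smallest p of each list added. The 8 genes and the lists were chosen with earlier results of these data known. Npy4r, Hcrt, Avp and Oxt were not analysed here. Chga, Vipr1, Nr2f2, Maf, Adarb2, Nkx2-1, Dlx2, Dlx5 and Dlx6 fall outside this rule and were named after their values were seen. Some genes that the rule names are not reported here.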

Additional observations from a re-analysis of the deposited data

How the results depend on the processing

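None of the 8 genes passed the cut-off of the study in any of the alternatives run (Cort has no value under the filter at 1 FPKM). The count over all genes was 25 with a pseudocount of 1, 59 with a filter at a mean of 1 FPKM and 88 at an unadjusted p below 0.01, and 235 to 388 when 1 sample was left out, with the highest count without CON replicate 2. The causes were not tested. The number of the 8 genes with an unadjusted p below 0.05 was 0 to 1 on leaving out 1 sample. The log2 fold changes then ranged from -0.069 to 0.59 for Sst, -0.39 to 0.70 for Pvalb, -0.14 to 0.11 for Vip, -0.92 to -0.10 for Npy, -0.20 to 0.57 for Cck, 0.10 to 0.66 for Calb2 and 0.0022 to 0.11 for Reln. Relative to the GABA genes they ranged from -0.18 to 0.51 for Sst, -0.50 to 0.61 for Pvalb, -0.44 to 0.029 for Vip, -1.02 to -0.28 for Npy, -0.50 to 0.49 for Cck, -0.21 to 0.55 for Calb2 and -0.25 to -0.0094 for Reln. Vip, close to 0, changed sign to 0.016 under quantile normalization and to 0.052 under the GC correction with or without the replicate block. The sign of the other 6 quantified genes held in the alternatives that kept all samples. Same-numbered samples did not deviate together (correlations -0.049, -0.45 and 0.027), so the numbers were not taken as pairs. With the replicate block, 226 genes passed the cut-off and 0 of the 8 genes.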
